A study of Macaca mulatta with 11 samples.

Results

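The 96 probe sets described here measure the nuclear-encoded subunits of the 5 oxidative phosphorylation complexes in cultured marrow stromal cells. They are the probe sets with exactly 1 gene symbol in the platform annotation whose symbol names a subunit of complex I (NDUFA, NDUFB, NDUFC, NDUFS and NDUFV), complex II (SDHA to SDHD), complex III (UQCR and CYC1), complex IV (numbered COX subunits) or complex V (ATP5). They stand for 65 of the 11963 genes named in this way, and for 96 of the 22215 probe sets on the array. Complex I had 34 probe sets for 27 genes, complex II had 7 for 3 genes, complex III had 10 for 7 genes, complex IV had 16 for 11 genes and complex V had 29 for 17 genes. A further 7 probe sets were left out because they carried several symbols, of which 1 matched. Of the 65 symbols, 64 name a protein-coding gene in the rhesus RefSeq annotation. The remaining one, ATP5MC2P1, is a processed pseudogene in human.

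The cells were mesenchymal stem cells from the marrow of untreated rhesus monkeys (Macaca mulatta), grown to passage 2 and analysed on 1 array per culture. The stages were gestation day 120 (2 arrays), newborn (2 arrays), infant (4 arrays, donors 6, 6, 3 and 5 months old) and adult (3 arrays, donors 7, 7 and 8 years old). Sample titles pool the gestation day 120 arrays (fetal 1 and 2) with the newborn arrays (fetal 3 and 4). Marrow was flushed from long bones at gestation day 120 and in newborns and was aspirated in infants and adults, so that collection and age cannot be told apart between the earlier and later pairs of stages. No label states that arrays of 1 stage came from different animals, and p-values therefore measure the spread between these cultures, which may be technical in part.

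Oxidative phosphorylation takes place in the inner mitochondrial membrane. Complexes I and II feed electrons from NADH and succinate to ubiquinone, complex III passes them to cytochrome c, and complex IV hands them to oxygen. Complexes I, III and IV pump protons, and complex V, the ATP synthase, uses the return flow of protons to make ATP. Most subunits are encoded in the nucleus, made in the cytosol and imported. Marrow stromal cells are known for reliance on glycolysis while they proliferate and for a greater use of mitochondrial respiration when they differentiate into bone or fat cells. The roles given below are those known from human and bovine mitochondria.

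The median intensity of an array was 164.9 to 169.6 units, and any pair of arrays correlated at 0.928 to 0.983 (log2 values). Precision is limited by how few arrays each stage has. Human probes were hybridised with monkey RNA, so a dim probe set may reflect a poor match, and levels of different probe sets are not compared below beyond dim and bright. The defining stromal markers ENG, THY1 and CD44 read above the median of all log2 values, 7.38, in the mean of every stage, whereas NT5E read below it, at 6.87 to 7.05. Of 17 listed genes of antibody-producing cells 15 were measured, and their mean log2 intensity was 8.16 and 8.31 in adult arrays 1 and 2 and 7.68 in adult array 3, against 7.47 to 7.64 in the other 8 arrays. The corresponding lists for macrophages and other leukocytes (11 of 12 measured, 7.50 to 7.80 in adults, 7.37 to 7.66 elsewhere), erythroid cells (9 of 11, 7.46 to 7.63 in the 11 arrays), skeletal muscle (14 of 15, 7.33 to 7.48) and adipocytes (10 of 11, 7.31 to 7.56) lay near the median of all values. Adult array 3, the lowest adult array for the subunits, was thus also the lowest adult array for antibody-cell genes, and the part of these other cells in the subunit values was not tested. An array reads the RNA of the whole culture, so fewer cells of a type and less RNA per cell cannot be told apart.

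The mean log2 intensity lay above 7.38 for 78 of the 96 probe sets and above 9 for 30 of them, with a range from 6.77 to 11.56. The probe sets of highest signal belonged to NDUFB1 in complex I, SDHC in complex II, UQCRC1 in complex III, COX6A1 in complex IV and ATP5F1A in complex V, an order that mixes probe response with RNA level. A probe set's pooled within-stage SD had a median of 0.20 over the 96, with a lowest value of 0.070 and a highest of 0.49. The 4 stage means of 42 of the 96 probe sets spanned less than that probe set's own within-stage SD.

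No subunit passed the test between any stages. In limma with Benjamini-Hochberg adjustment over all 22215 probe sets, 0 of 96 reached an adjusted p under 0.05 in each of the 6 pairwise contrasts, in the F test over the 4 stages, in the trend over their order and between adult and title-defined fetal arrays. Between adults and gestation day 120, 27 of all probe sets did (0.122%). At an unadjusted p under 0.05 stood 15 of the 96 probe sets in that comparison, 13 with a lower and 2 with a higher mean in adults, against 8.04% of all probe sets (4.74% lower and 3.30% higher). The adult mean was the lower one for 67 of the 96, or 69.8%, against 48.1% of all probe sets. Among probe sets brighter than 7.38 the shares were 59 of 78 subunit probe sets and 56.2% of all. Of these 78, 12 were lower in adults at an unadjusted p under 0.05 by limma, against 8.19% of all the brighter probe sets. The median log2 difference was -0.099 over the 96 (-0.057 after a further quantile normalisation) and 0.0078 over all probe sets. Groups did not overlap for 29 of the 96, 20 of them lower in adults and 9 higher, against 22.7% of all probe sets (11.7% higher). These shares count probe sets, which are not independent, and adult array 3 had the lowest mean of the adults. Without it 49 of the 96 adult means were the lower ones and the median difference was -0.0063, while leaving out adult array 2 instead gave 72 of 96 and -0.15. With both adult arrays 1 and 2 omitted, a choice made once the values were known, 75 of 96 were below 0 with a median of -0.25.

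**Figure D1:**
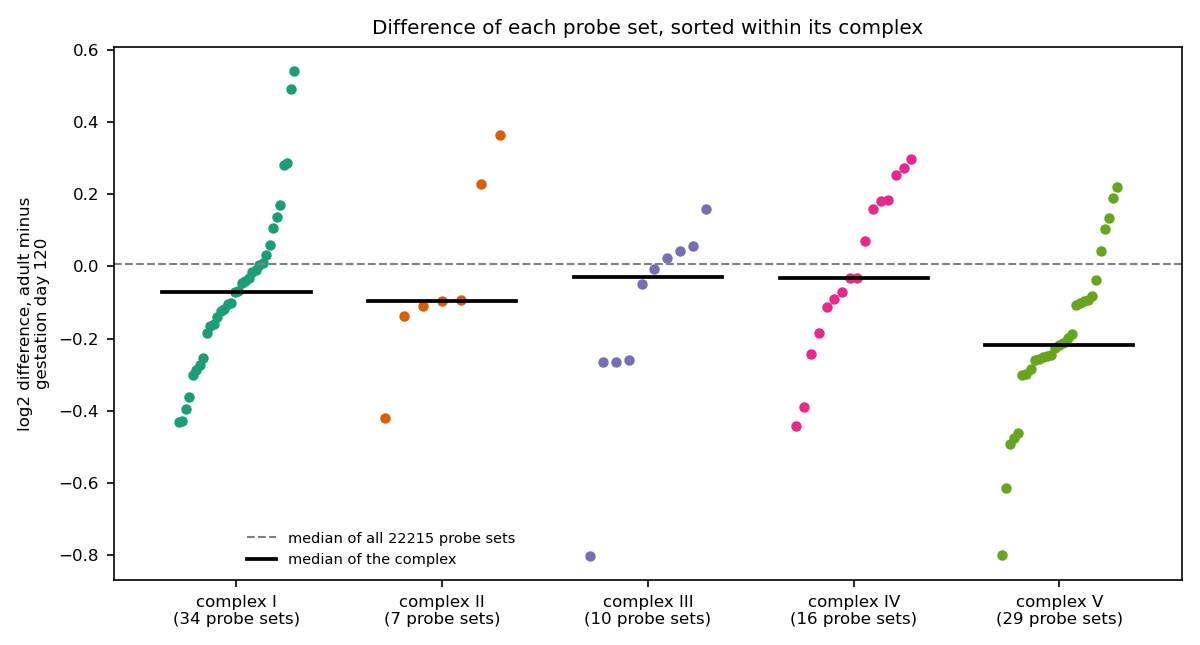
Log2 difference of each probe set between adult and gestation day 120 arrays (vertical axis), sorted within complexes I to V (horizontal axis), with 1 point per probe set, a black bar at the median of each complex and a dashed line at the median of all probe sets, 0.0078. Points of complex V lie mostly below 0, with a median of -0.22, and the lowest points of complexes III and V are both at -0.80.

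The complexes differed in how many of their adult means lay below those of gestation day 120, a difference that was not tested. Complex V had 24 of 29 probe sets below 0 with a median of -0.22, and complex I had 23 of 34 with a median of -0.070. Complex II had 5 of 7 below 0 with a median of -0.095. Complex III had 6 of 10 with a median of -0.029 and complex IV 9 of 16 with a median of -0.033, and both of these medians were above 0 when the deposited values were quantile normalised again (0.022 and 0.043). Without adult array 3 the median of complex V was -0.088, with 19 of 29 below 0, that of complex I was -0.047, and those of complexes II, III and IV were 0.10, 0.072 and 0.14.

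Within complex I, the NADH dehydrogenase, the 5 core subunits that carry the flavin and iron-sulfur groups or surround them all had lower adult than gestation day 120 means, with a median difference of -0.36. NDUFS3, a core subunit of the peripheral arm, had log2 intensities of 9.50 and 9.54 at gestation day 120, 9.43 and 9.28 in newborns, 9.23, 9.39, 9.18 and 8.83 in infants, and 9.14, 9.21 and 8.91 in adults. Every infant and adult array lay below both gestation day 120 arrays, and infant array 4 was the lowest of all. Its log2 difference between adults and gestation day 120 was -0.43 (SE 0.16, limma adjusted p = 0.479). NDUFS1, the largest iron-sulfur subunit, was picked after its values were seen and differed by -0.40 (SE 0.18, limma adjusted p = 0.594). The other core subunits, NDUFS7, NDUFV1 and NDUFV2, differed by -0.27, -0.03 and -0.36.

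Accessory subunits of the membrane arm, the NDUFB genes, had 11 of 13 probe sets (9 genes) below 0 with a median of -0.12. NDUFB8, whose protein is often used as a marker of assembled complex I, was read by 3 probe sets, which all pointed the same way. On the first of them it had 9.46 and 9.45 at gestation day 120, 9.29 and 9.29 in newborns, 9.17, 9.04, 9.16 and 9.15 in infants, and 9.16, 8.79 and 9.12 in adults. On this probe set no newborn array reached a gestation day 120 array, and no infant or adult array reached a newborn array. The log2 difference between adults and gestation day 120 was -0.43 (SE 0.13, limma adjusted p = 0.318), and the other 2 probe sets gave -0.29 (SE 0.13) and -0.30 (SE 0.11). The last of these was dim, with stage means from 6.76 to 7.06. Neither repeated the stepwise order. On the brighter one newborn array 1, at 9.80, exceeded gestation day 120 array 2, at 9.72. There newborn array 2, infant array 4 and adult arrays 1 and 2 all read 9.54. On the dim one adult array 3, at 6.87, exceeded both newborn arrays, at 6.83. NDUFB1 had means of 10.35 ± 0.055 at gestation day 120, 10.27 ± 0.36 in newborns, 10.35 ± 0.12 in infants and 10.30 ± 0.15 in adults (SD, n = 2, 2, 4 and 3), which differed by less than their spread. NDUFB4 read highest in newborn array 1, at 8.01, against 7.37 to 7.80 in the other 10 arrays. NDUFB7, of 2 probe sets, had differences between adults and gestation day 120 of -0.14 and -0.12.

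The NDUFA genes, also accessory, went the other way in part, with 5 of 13 below 0 and a median of 0.032. NDUFA2, an accessory subunit of the peripheral arm, had 8.98 and 9.57 at gestation day 120, 9.61 and 9.11 in newborns, 9.59, 9.79, 9.37 and 9.53 in infants, and 9.96, 10.06 and 9.43 in adults on its brighter probe set. Adult arrays 1 and 2 were the highest of the 11, but adult array 3 lay within the range of gestation day 120. The log2 difference was 0.54 (SE 0.22, limma adjusted p = 0.550), and it was 0.24 without gestation day 120 array 1 and 0.84 without gestation day 120 array 2. The dimmer probe set gave 0.29 (SE 0.14, limma adjusted p = 0.669) with no overlap between the 2 stages.

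Complex II, succinate dehydrogenase, also belongs to the tricarboxylic acid cycle. SDHA, the flavoprotein that oxidises succinate, had 9.48 and 9.07 at gestation day 120, 9.19 and 8.95 in newborns, 8.91, 8.92, 8.87 and 8.90 in infants, and 8.69, 8.80 and 9.07 in adults. The 4 infant arrays agreed within an SD of 0.021 and lay below every earlier array, while adult array 3 was level with the second gestation day 120 array. The difference between adults and gestation day 120 was -0.42 (SE 0.15, limma adjusted p = 0.458), and -0.22 without gestation day 120 array 1. The SDHA probe set is open to cross-hybridisation by its x_at suffix.

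SDHD, a membrane anchor of the complex, had the opposite sign. It had 7.07 and 6.92 at gestation day 120, 7.12 and 7.10 in newborns, 7.13, 7.18, 7.01 and 7.35 in infants, and 7.55, 7.39 and 7.13 in adults, all of them dim except in adult arrays 1 and 2. Adult arrays 1 and 2 were the highest, and infant array 4 exceeded adult array 3. Its difference between adults and gestation day 120 was 0.36 (SE 0.14, limma adjusted p = 0.525) and 0.23 (SE 0.15) on a second dim probe set. SDHC, the other anchor, was read by 4 probe sets with differences between -0.14 and -0.093. Its brightest probe set, also with the x_at suffix, ranged from 8.76 in adult array 3 to 9.73 in infant array 2. The spread within stages (SD 0.41) was larger than the range of the stage means (0.23).

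Complex III, the cytochrome bc1 complex, held the subunit with the largest difference between adults and gestation day 120. UQCRC1, 1 of the 2 large core proteins of the complex, had 10.99 and 11.06 at gestation day 120, 10.97 and 10.49 in newborns, 10.61, 10.44, 10.45 and 10.15 in infants, and 10.29, 10.56 and 9.83 in adults. The gestation day 120 arrays and newborn array 1 were the 3 highest and adult array 3 the lowest, with infants and adults overlapping. The log2 difference between adults and gestation day 120 was -0.80 (SE 0.21), which is 1.74-fold, with a limma adjusted p of 0.245. That value was -0.60 without adult array 3 and -0.97 without adult array 2. The UQCRC1 difference was -0.51 (SE 0.21, limma adjusted p = 0.967) between adults and newborns. Between infants and gestation day 120 it was -0.61 (SE 0.20, limma adjusted p = 0.656). These comparisons share arrays. In the trend over stages UQCRC1 had the smallest adjusted p of any subunit, 0.0976 by limma, with a slope of -0.27 per stage (SE 0.061), and it passed in that test under 3 of 20 alternatives.

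UQCRC2, the other core protein, was named after its values were seen and had differences of -0.26 (SE 0.25) and -0.27 (SE 0.18) on its 2 probe sets. CYC1, cytochrome c1, which hands electrons to cytochrome c, had 8.35 and 8.49 at gestation day 120, 8.27 and 8.21 in newborns, 8.07, 8.31, 8.53 and 8.35 in infants, and 8.45, 8.79 and 8.50 in adults. Newborns lay below adults without overlap, and the log2 difference between adults and newborns was 0.34 (SE 0.15, limma adjusted p = 1.00). The 6 probe sets of the small subunits of complex III had 3 differences below 0 between adults and gestation day 120, with a median of 0.0072.

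Complex IV, cytochrome c oxidase, is represented by its nuclear-encoded regulatory subunits, since the catalytic subunits are encoded in mitochondrial DNA. COX5B, a zinc-binding subunit, was read by 4 probe sets whose differences were unlike. On one of them it had 8.24 and 8.08 at gestation day 120, 7.85 and 8.00 in newborns, 8.08, 8.32, 8.15 and 7.94 in infants, and 8.17, 8.54 and 8.52 in adults. All adult arrays lay above both newborn arrays, and the log2 difference between adults and newborns was 0.49 (SE 0.15, limma adjusted p = 0.790). The 2 brighter COX5B probe sets, both open to cross-hybridisation by their x_at suffix, had adult means of 9.22 ± 0.36 and 8.81 ± 0.34 (SD, n = 3) and newborn means of 9.10 ± 0.26 and 8.81 ± 0.34 (SD, n = 2).

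COX6C, a small subunit, had 7.37 and 7.31 at gestation day 120, 7.02 and 7.28 in newborns, 7.82, 7.93, 7.45 and 7.40 in infants, and 7.55, 7.83 and 7.45 in adults. All 7 infant and adult arrays were above the 4 earlier arrays. The log2 difference was 0.46 (SE 0.18, limma adjusted p = 0.931) between adults and newborns and 0.50 (SE 0.17, limma adjusted p = 1.00) between infants and newborns, 2 comparisons that share the newborn arrays. It was 0.27 (SE 0.18) between adults and gestation day 120.

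Of the isoform pairs, COX6A1 and COX7A2 are the widespread forms and COX6A2 and COX7A1 the forms of heart and skeletal muscle. COX6A1 had 11.07 and 11.10 at gestation day 120, 11.08 and 11.09 in newborns, 10.757, 11.043, 11.113 and 11.001 in infants, and 11.19, 11.26 and 11.28 in adults. The 3 adult arrays were the highest of the 11, but by little, and the log2 difference between adults and infants was 0.27 (SE 0.11, limma adjusted p = 0.835). Its muscle counterpart COX6A2 was dim in all arrays, between 6.98 and 7.37, and its stage means spanned 0.11, as much as its within-stage SD of 0.11. COX7A2 had means of 9.21 ± 0.023, 9.02 ± 0.0070, 8.97 ± 0.32 and 8.97 ± 0.16 over the 4 stages from gestation day 120 to adult (SD, n = 2, 2, 4 and 3), and COX7A1 had 7.55 ± 0.049, 7.68 ± 0.13, 7.62 ± 0.27 and 7.48 ± 0.27 for the same stages. Neither muscle form therefore differed between stages by more than its spread.

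COX5A, a regulatory subunit next to COX5B, had means of 8.86 ± 0.37 in adults (SD, n = 3) and 9.25 ± 0.081 at gestation day 120 (SD, n = 2), a difference of -0.39 (SE 0.19, limma adjusted p = 0.667) that was -0.21 without adult array 3. COX7B, singled out after its values were seen, differed by -0.44 (SE 0.20, limma adjusted p = 0.611). COX7C was read by 3 probe sets, 2 of which had differences of -0.03 and -0.09 between adults and gestation day 120 and the third 0.30 (SE 0.21).

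**Figure D2:**
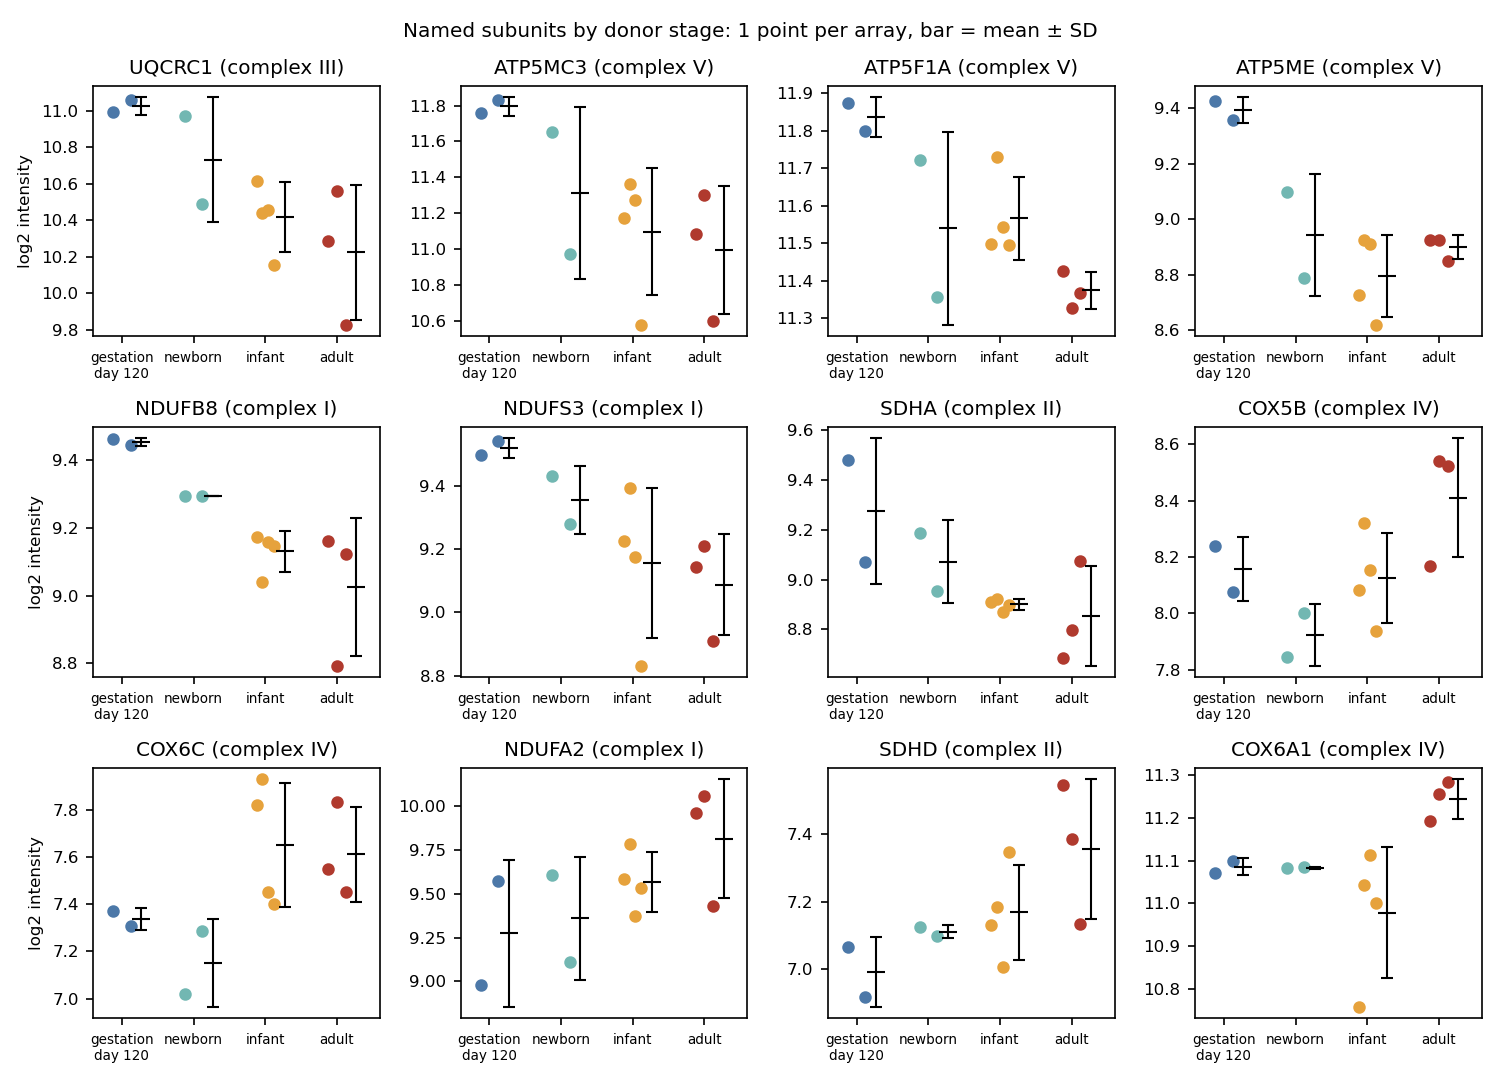
Log2 intensity (vertical axes, each with its own range) of 12 named subunits, on 1 probe set each, in arrays of the 4 stages (horizontal axis), with 1 point per array and the mean ± SD of each stage beside the points. UQCRC1, ATP5MC3, ATP5F1A, ATP5ME, NDUFB8, NDUFS3 and SDHA have their highest mean at gestation day 120, whereas COX5B, NDUFA2, SDHD and COX6A1 have theirs in adults and COX6C in infants.

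Complex V, the ATP synthase, consists of a catalytic F1 head, a ring of c subunits that turns with the proton flow, a peripheral stalk and small membrane subunits that join synthases into dimers. In the F1 head 7 of 9 probe sets, which read 5 genes, had lower adult than gestation day 120 means. The median difference was -0.22. ATP5F1A, the alpha subunit of the head, had 11.87 and 11.80 at gestation day 120, 11.72 and 11.36 in newborns, 11.50, 11.73, 11.54 and 11.50 in infants, and 11.43, 11.33 and 11.37 in adults. The adult arrays lay below every gestation day 120 and infant array and overlapped the newborns through newborn array 2. The difference between adults and gestation day 120 was -0.46 (SE 0.13, limma adjusted p = 0.290). ATP5F1B, the catalytic beta subunit, had means of 11.27 ± 0.091 in adults (SD, n = 3) and 11.48 ± 0.11 at gestation day 120 (SD, n = 2), with no overlap between the 2 stages and a difference of -0.22 (SE 0.14, limma adjusted p = 0.776).

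The c ring is encoded by 3 genes whose mature protein is the same and whose import signals differ. ATP5MC3 had 11.76 and 11.83 at gestation day 120, 11.65 and 10.97 in newborns, 11.17, 11.36, 11.27 and 10.58 in infants, and 11.08, 11.30 and 10.60 in adults on its brighter probe set. Both gestation day 120 arrays were above the other 9, and newborn array 2, infant array 4 and adult array 3 were the lowest of their stages. The log2 difference between adults and gestation day 120 was -0.80 (SE 0.26, limma adjusted p = 0.378). It was -0.60 without adult array 3 and -0.95 without adult array 2. The second probe set of ATP5MC3 gave -0.61 (SE 0.24, limma adjusted p = 0.527). ATP5MC1 had means of 8.76 ± 0.28 in adults (SD, n = 3) and 9.06 ± 0.053 at gestation day 120 (SD, n = 2), a difference of -0.30 (SE 0.21, limma adjusted p = 0.793) that was -0.46 without adult array 2. ATP5MC2 differed little between those stages, by -0.21 (SE 0.18) and 0.10 (SE 0.12) on its 2 probe sets, and by -0.36 (SE 0.15, limma adjusted p = 0.867) between adults and infants on the brighter one, where adult array 3, at 9.28, stood below the other 10 arrays at 9.75 to 10.19. Without that array the difference was -0.15.

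Among the small membrane subunits 7 of 8 probe sets, which read only 3 genes, had lower adult than gestation day 120 means. The median difference was -0.27. ATP5ME, the e subunit at the dimer interface, had 9.43 and 9.36 at gestation day 120, 9.10 and 8.79 in newborns, 8.73, 8.92, 8.91 and 8.62 in infants, and 8.92, 8.92 and 8.85 in adults. Both gestation day 120 arrays exceeded the other 9, which overlapped among themselves. The log2 difference was -0.49 (SE 0.14, limma adjusted p = 0.267) between adults and gestation day 120, -0.60 (SE 0.13, limma adjusted p = 0.320) between infants and gestation day 120 and -0.45 (SE 0.15, limma adjusted p = 1.00) between newborns and gestation day 120, 3 comparisons that share the same 2 arrays. ATP5ME also had the smallest p of any subunit in the F test over the stages (0.00386, limma adjusted p = 0.480). These values come from a probe set open to cross-hybridisation by its x_at suffix. The second probe set of ATP5ME gave -0.28 (SE 0.14) between adults and gestation day 120.

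ATP5MG, the g subunit that pairs with it, had differences of -0.47 (SE 0.19), -0.26 (SE 0.17) and -0.30 (SE 0.21) on 3 bright probe sets that share the x_at suffix, and 0.19 (SE 0.15) on a dim one. The peripheral stalk had 5 of 5 probe sets (4 genes) below 0, with a median of -0.10 and a lowest value of -0.25. ATP5IF1, an inhibitor of the synthase that the symbol rule includes, differed by 0.13 (SE 0.25).

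The other pairs of stages gave fewer differences. Between adults and newborns, where 2 of all probe sets were called (0.00900%), 5 subunit probe sets stood at an unadjusted p under 0.05 by limma (4 higher and 1 lower in adults, against 2.29% and 2.59% of all probe sets, or 4.88% together). The median difference over the 96 was -0.016 and 55 were below 0, against 47.2% of all probe sets. Among probe sets brighter than 7.38, 45 of 78 subunit ones and 54.5% of all were below 0. The count of 5 was 2 without newborn array 1, 3 without infant array 4 or adult array 2, and 8 without newborn array 2. For such counts with 1 array left out, here and below, the share of all probe sets in the same fit was not counted. Adults and infants had 3 of all probe sets called (0.0135%), and 24 with the title numbers as a replicate block. At an unadjusted p under 0.05 by limma stood 3 subunit probe sets (2 higher and 1 lower, against 3.48% and 2.23%, or 5.70% together). With the block 14 did, but the share of all probe sets was not counted in that fit, so 14 cannot be set against 5.70%. The count of 3 was 1 without infant array 1, 5 without infant array 3 and 6 without adult array 1. The median difference was -0.031, or -0.093 with the block, and 57 were below 0, against 46.1% of all. That median was 0.063 without adult array 3, 0.030 without infant array 2 and -0.088 without infant array 4. Groups did not overlap for 12 subunit probe sets between adults and newborns, 2 of them lower in adults and 10 higher, against 17.5% of all probe sets (9.75% higher). Between adults and infants they did not overlap for 4, 2 lower in adults and 2 higher, against 4.98% (3.18% higher).

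Against gestation day 120, infants had 11 subunit probe sets with a lower mean at an unadjusted p under 0.05 by limma and 0 with a higher one (4.29% of all probe sets were lower and 1.78% higher, 6.07% together, and 0% were called). The median difference was -0.078, with 62 below 0 against 51.5% of all probe sets. Among the brighter probe sets, 53 of 78 subunit ones and 59.8% of all were below 0. At that unadjusted p, 10 of these 78 were lower in infants, against 7.45% of the brighter probe sets. Groups did not overlap for 18 of the 96, 15 of them lower in infants and 3 higher, against 13.7% of all probe sets (5.75% higher). The count of 11 was 6 without gestation day 120 array 1. Newborns against gestation day 120 had 2 such probe sets, both lower (0.963% of all probe sets were lower and 0.846% higher, 1.81% together, 0% called), with 72 below 0 against 51.4% and a median of -0.090. Among the brighter probe sets, 62 of 78 subunit ones and 54.1% of all were below 0. The 2 arrays of each stage did not overlap for 27 of the 96, 21 of them lower in newborns and 6 higher, against 28.8% of all probe sets (13.7% higher). The count of 2 was 1 without gestation day 120 array 1 and 7 without newborn array 1. Between infants and newborns the median was 0.0080, with 44 below 0 (51.0% of all probe sets) and 1 probe set, that of COX6C, higher in infants at an unadjusted p under 0.05 (1.36% of all probe sets were higher, 3.61% in either direction, 0% called). That count was 5 without newborn array 2, and 2 without newborn array 1, infant array 3 or infant array 4. Among the brighter probe sets, 38 of 78 subunit ones and 57.9% of all were below 0 between infants and newborns. The median over the subunits lay below that over all probe sets in 5 of the 6 contrasts, which share arrays, and above it between infants and newborns. Among the brighter probe sets the subunit median was also the higher one between adults and newborns, at -0.014 against -0.020. The 3 contrasts with gestation day 120 had the medians farthest below 0.

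Over the 4 stages at once, 7 subunit probe sets had an unadjusted F p under 0.05 (5.53% of all probe sets, of which 0.0270% were called). In the trend over stage order 16 did, 12 with falling and 4 with climbing means (5.50% and 3.92% of all probe sets, 9.42% together, 0.275% called). The F test count was 3 without either gestation day 120 array and 4 without infant array 1, and the trend count was 9 without gestation day 120 array 2. Between adults and the 4 arrays titled fetal, 11 did, 7 lower and 4 higher in adults (4.83% and 4.12% of all probe sets, 8.96% together, 0.131% called), with a median difference of -0.060 (0.0072 without adult array 3) and 64 below 0, against 47.5% of all probe sets. Among the brighter probe sets, 56 of 78 subunit ones and 56.0% of all were below 0. Groups did not overlap for 8 of the 96, 2 of them lower in adults and 6 higher, against 8.08% of all probe sets (4.41% higher). The count of 11 was 7 without gestation day 120 array 1 and 22 without newborn array 2. The share of all probe sets at an unadjusted p under 0.05 was not counted in those fits, so 22 cannot be set against 8.96%. With 1 array left out, calls among all probe sets in this comparison ran from 4 to 153 (29 as reported). UQCRC1 had the smallest p of the subunits there, with a difference of -0.65 (SE 0.18, limma adjusted p = 0.217). With the title numbers as a replicate block UQCRC1 (-0.76, limma adjusted p = 0.0252) and ATP5MC3 (-0.74, limma adjusted p = 0.0209) passed in this comparison, and UQCRC1 did with the first principal component as a covariate (limma adjusted p = 0.0265).

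Arrays of 1 stage differed among themselves. The mean deviation of the 96 probe sets from their own means over the 11 arrays was 0.083 and 0.065 in the gestation day 120 arrays, 0.10 and -0.13 in newborns, 0.025, 0.15, -0.054 and -0.15 in infants, and 0.049, 0.064 and -0.19 in adults. The first principal component of all probe sets (23.1% of the variance) set adult arrays 1 and 2 and infant arrays 1 and 2, at 16.1 to 20.5, apart from the other 7 arrays at -19.5 to -6.70, and so split both stages. Adult array 3 was the lowest on this component and on the second (17.5%). For the subunits newborn array 2, infant array 4 and adult array 3 stood low, and infant array 2 high, while the stage means were 0.074, -0.016, -0.0086 and -0.027 in stage order. In these 3 low arrays 16, 15 and 23 of the 96 probe sets were above their own mean, against 36 to 74 in the other 8. All 5 complexes were low in them. In newborn array 2 the means of the 5 complexes lay between -0.22 and -0.094, in infant array 4 between -0.19 and -0.11, and in adult array 3 between -0.27 and -0.11.

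Bright probe sets in general shifted less in those arrays. The 30 subunit probe sets above a log2 level of 9 had mean deviations of -0.23 in newborn array 2, -0.25 in infant array 4 and -0.35 in adult array 3. For all 1843 probe sets above that level the values were 0.040, -0.062 and -0.13. Among the higher arrays, the 2 gestation day 120 arrays had 0.16 and 0.17 for the subunits and 0.035 and 0.079 for all bright probe sets, newborn array 1 had 0.17 and 0.014, and infant array 2 had 0.19 and 0.096.

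**Figure D3:**
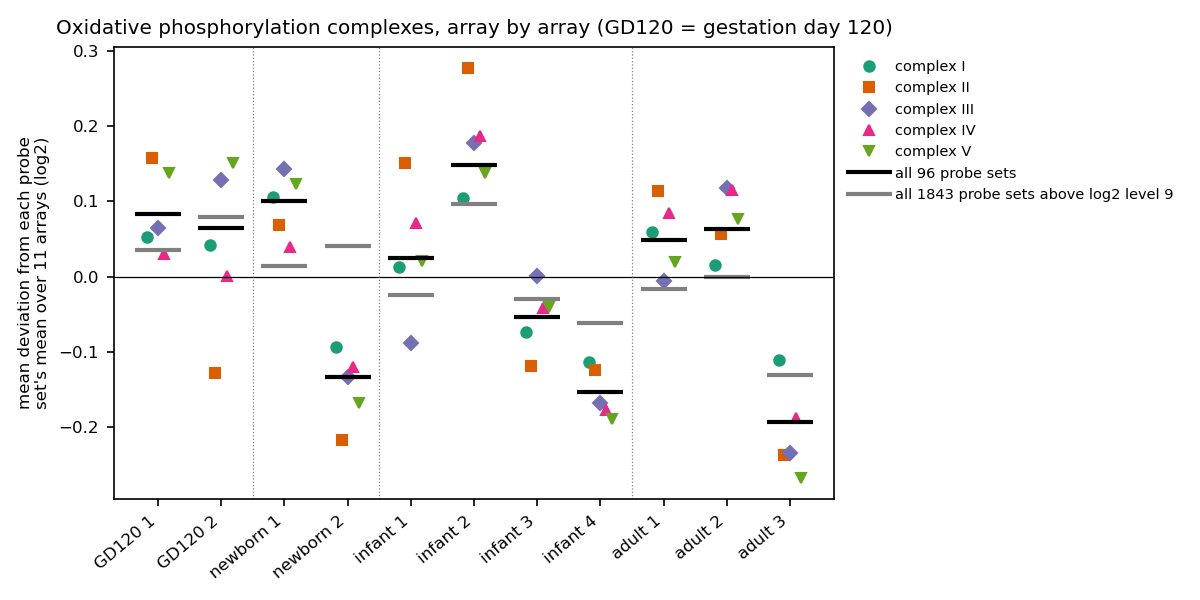
Mean log2 deviation from each probe set's own mean (vertical axis) in each of the 11 arrays (horizontal axis), with 1 symbol per complex, a black bar for the 96 subunit probe sets and a grey bar for all 1843 probe sets above a log2 level of 9. Newborn array 2, infant array 4 and adult array 3 have all 5 complexes below 0, with subunit means of -0.13, -0.15 and -0.19.

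**Figure D4:**
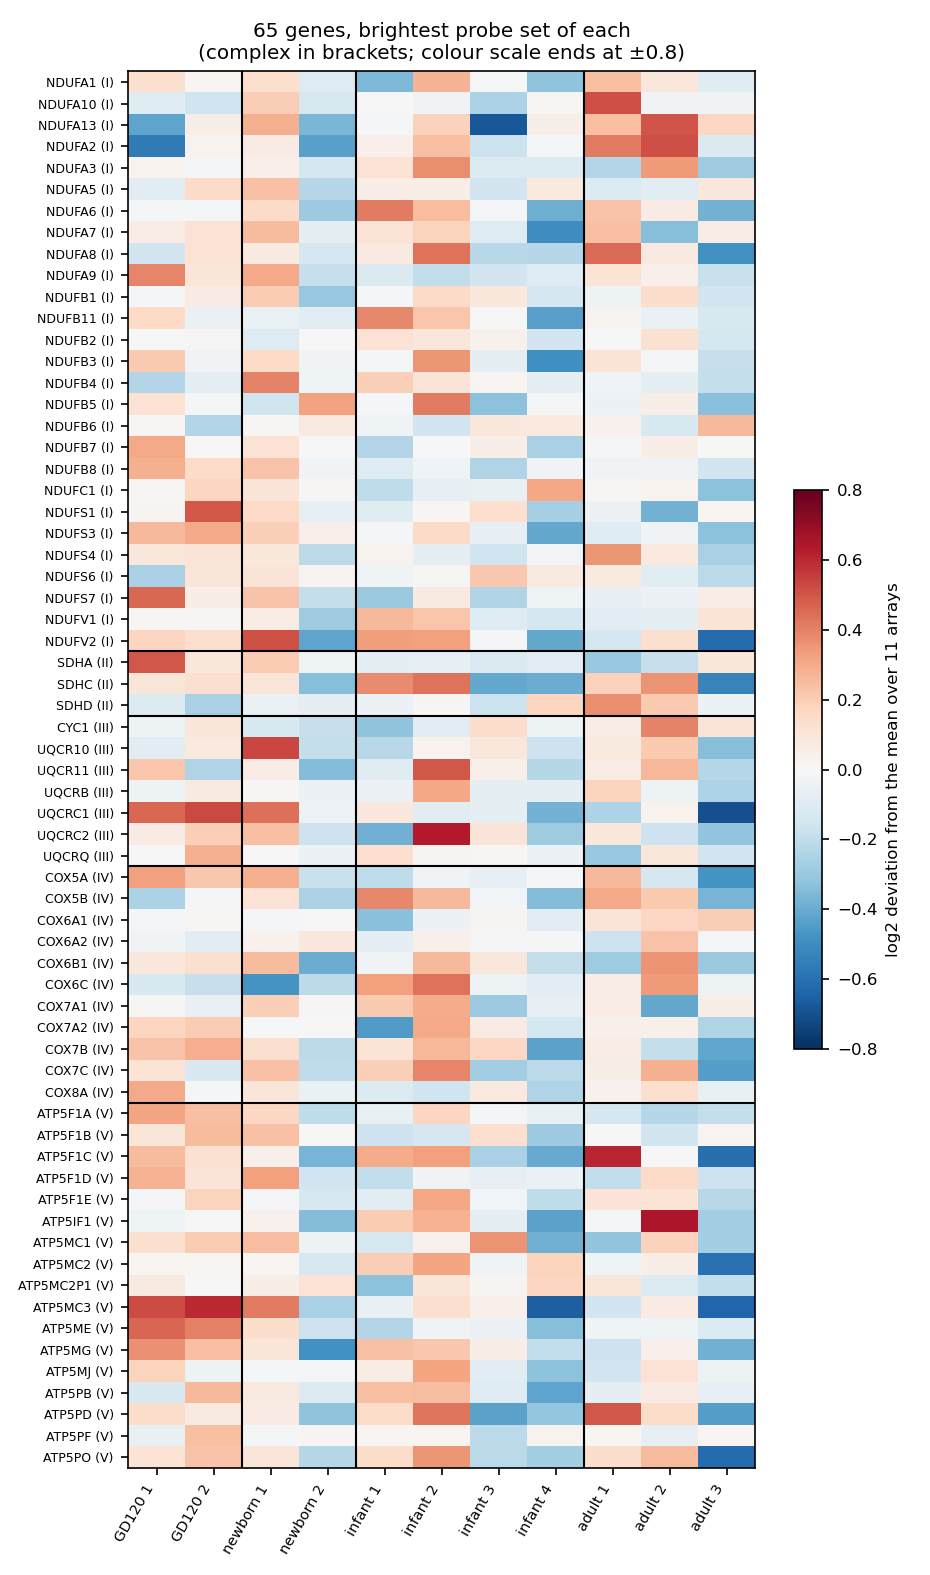
Log2 deviation from the mean over 11 arrays for the 65 genes, each on its brightest probe set (rows, by complex), in the 11 arrays (columns, by stage), from blue (lower) to red (higher). UQCRC1, ATP5MC3 and ATP5ME stand out in red in both gestation day 120 arrays, and adult array 3 is blue for most rows.

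Several genes were read by more than 1 probe set, which serves as a check within an array. Of 20 such genes, 11 had the same sign in all their probe sets between adults and gestation day 120, among them ATP5MC3, ATP5ME, NDUFB8, NDUFA2, SDHC and SDHD. Disagreement involved a dim probe set in part of the others, as in ATP5MG, where the dim one read the opposite way to its 3 bright partners. A shared sign did not mean a shared pattern over the 11 arrays, which share their processing. The 2 probe sets of ATP5MC3 correlated at 0.79 and those of ATP5ME at 0.75, but those of NDUFA2 at 0.21, NDUFB2 at 0.36, ATP5PO at -0.038 and NDUFB7 at -0.16. Among the 4 probe sets of ATP5MG the correlations ran from -0.60 to 0.93. Of the 96 probe sets, 18 carry the x_at suffix and 33 the s_at suffix, which mark probes that may match related transcripts. Many of these genes have processed pseudogenes of near-identical sequence, so that part of such a signal could come from a copy, which was not tested.

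Genes around the respiratory chain were examined from lists, with the brightest probe set per gene, and 0 of them passed limma in any of the 9 tests. CYCS, cytochrome c itself, had means of 7.87 ± 0.042, 8.22 ± 0.14, 7.89 ± 0.17 and 7.96 ± 0.42 from gestation day 120 to adult (SD, n = 2, 2, 4 and 3). COX4I1, the widespread form of a complex IV subunit whose name the symbol rule misses, had 10.35 ± 0.040, 10.29 ± 0.13, 10.34 ± 0.13 and 10.46 ± 0.25 in the same order. COX4I1 differed between stages by amounts within its spread in adults. For CYCS the adult SD was the largest. Its newborn mean lay above those of gestation day 120 and infants by more than the SD of any of these stages.

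In the tricarboxylic acid cycle, which supplies NADH and succinate, 20 of 22 listed genes were measured. Adult means were below those of gestation day 120 for 16 of the 20, with a median of -0.18, against 48.1% of all probe sets and 56.2% of the brighter ones. At an unadjusted p under 0.05 by limma stood 3 of the 20, against 8.04% of all probe sets and 12.2% of the brighter ones. Between infants and newborns 16 of the 20 were below 0 as well, against 51.0% of all probe sets and 57.9% of the brighter ones. Their median was -0.18, whereas the 96 subunit probe sets had 44 below 0 and a median of 0.0080. MDH2, mitochondrial malate dehydrogenase, had means of 8.59 ± 0.21 in adults (SD, n = 3) and 8.93 ± 0.035 at gestation day 120 (SD, n = 2), a difference of -0.34 (limma adjusted p = 0.561). PDHX, which anchors a subunit of the pyruvate dehydrogenase complex, differed by -0.45 (limma adjusted p = 0.543).

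Among mitochondrial carriers and channels, 17 of 19 listed genes were measured and 13 had lower adult than gestation day 120 means (48.1% of all probe sets, 56.2% of the brighter ones), with a median of -0.071. SLC25A4, the ADP/ATP carrier of heart and muscle, was an exception. Its means were 8.62 ± 0.16 at gestation day 120, 8.88 in newborns, with the same value in both arrays, 8.90 ± 0.14 in infants and 9.17 ± 0.27 in adults, and its difference between adults and gestation day 120 was 0.55 (limma adjusted p = 0.290). VDAC3, a channel of the outer membrane, differed by -0.57 (limma adjusted p = 0.507).

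**Figure D5:**
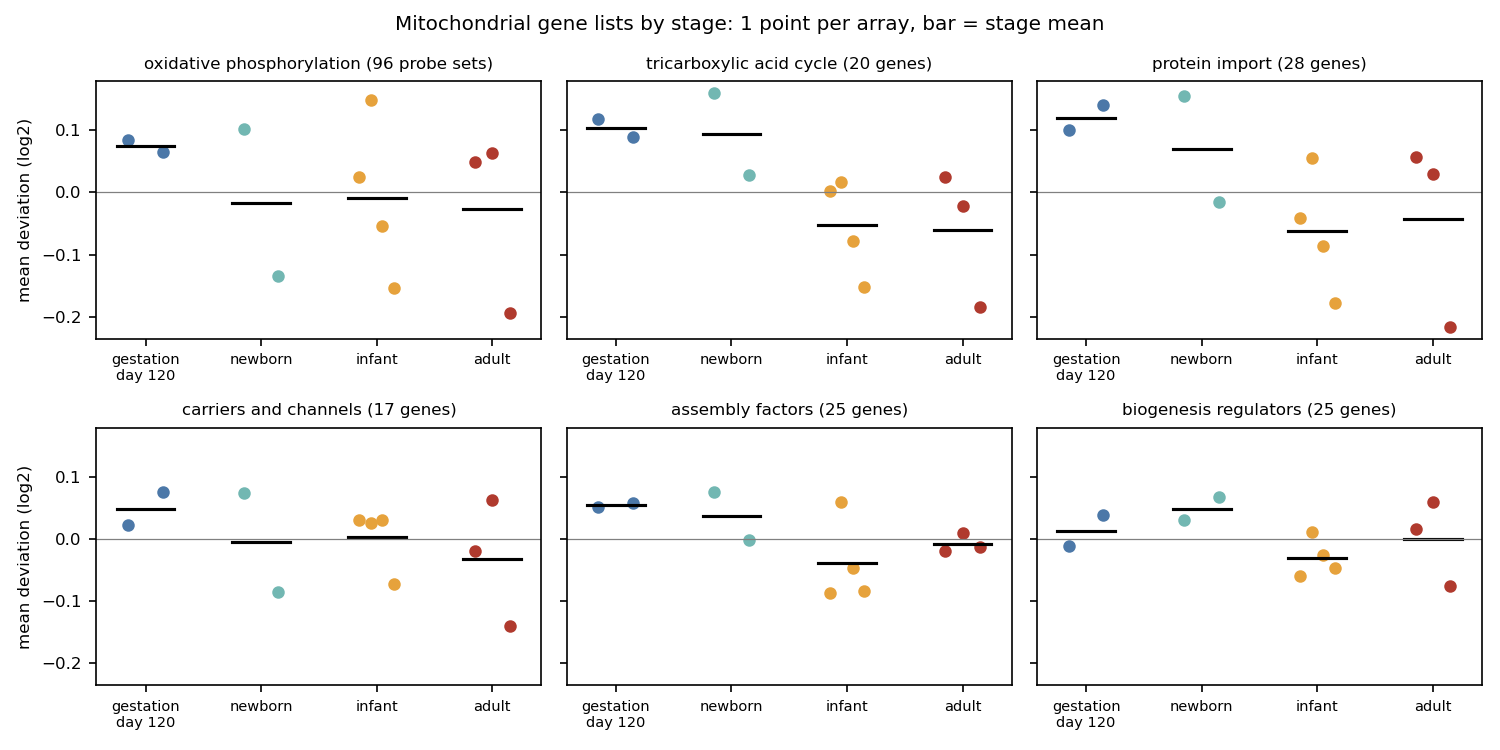
Mean log2 deviation per array (vertical axis) of the 96 subunit probe sets and of 5 lists of other mitochondrial genes, by stage (horizontal axis), with 1 point per array and a bar at the stage mean. The subunits have a stage mean of 0.074 at gestation day 120 and of -0.027 in adults, and the tricarboxylic acid cycle list has 0.10 at gestation day 120 and -0.060 in adults. In both panels the lowest adult point is adult array 3.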

How the data were processed

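Total RNA of 11 cultures was labelled with biotin and hybridised to 1 array each. The deposited values are intensity values per probe set on a linear scale, made by the authors with RMA per the submitters' processing notes, with the version not given in the sources used here. RMA includes a background correction, a normalisation across arrays and 1 summary value per probe set. Probe-level signals and detection calls were not used here. For this report log2 was taken without a pseudocount or filter, and genes were named from the platform annotation. Coordinates and sequences were not used here.

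All 11 arrays entered 1 model with a mean for each stage (limma 3.58.1, R 4.3.3, lmFit and eBayes), with 6 two-sided contrasts and an F test. Further fits used the stage order as 1 number, and the title groups. Calls needed an adjusted p under 0.05 (Benjamini-Hochberg, across the 22215 probe sets). The fits were tested on simulated data. Deviations from the means of the title groups correlated at 0.145, 0.131 and 0.204 between same-numbered adult and infant arrays. Between adult and title-defined fetal arrays they correlated at 0.068, 0.043 and -0.096, and between infant and title-defined fetal arrays at 0.116, 0.0077, 0.041 and 0.275. The numbers come from the titles, and the main fit has no block.

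Alternatives were a filter on dim probe sets, centring, quantile normalisation, array weights, a trended prior, the replicate block, the first principal component as a covariate, 1 probe set per gene, each array left out, and adult arrays 1 and 2 left out (chosen after the data were seen).

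The members, lists and naming rule were chosen with earlier results of these data known. Named subunits are any called, the 2 genes of smallest F p per complex, the 2 of smallest p per direction and contrast, isoform pairs, c ring genes and the brightest gene of each complex. Of other lists, the 2 genes of smallest F p and CYCS, COX4I1, PPARGC1A, TFAM and NRF1 are named.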

Additional observations from a re-analysis of the deposited data

How the results depend on the processing

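Over 20 alternatives the count of subunit probe sets past the threshold stayed at 0 in 174 results and moved in 6, and it was 0 in all 11 fits with 1 array left out for each of the 9 tests. With the first principal component as a covariate it was 2 between adults and gestation day 120 (UQCRC1, -0.999, limma adjusted p = 0.0166, and ATP5MC3, -1.02, 0.0496), 2 in the trend (the same 2 genes, 0.00839 and 0.0340) and 1 between adults and title-defined fetal arrays (UQCRC1, 0.0265). With the replicate block it was 2 in the trend (UQCRC1, 0.0388, and ATP5MC3, 0.0280) and 2 between adults and title-defined fetal arrays (0.0252 and 0.0209), and the block changed no other count of called subunits. Array weights gave 1 in the trend (UQCRC1, 0.0338). The cause was not tested.

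Median differences moved beyond the spread between arrays in 12 results and stayed within it in 148. With the principal component they were -0.225 (adults and gestation day 120), -0.186 (adults and title-defined fetal arrays) and -0.174 (complex I), and with the replicate block 0.121 (complex II). With adult arrays 1 and 2 left out, which leaves adult array 3 alone and assumes it to vary like the other stages, they were -0.25 (adults and gestation day 120), -0.19 (adults and infants), -0.22 (title-defined), and -0.19, -0.38, -0.28, -0.22 and -0.42 for complexes I to V. With 1 array left out the ranges were -0.154 to -0.0063, -0.088 to 0.063 and -0.126 to 0.0072 for the same 3 comparisons, and -0.133 to -0.047, -0.201 to 0.102, -0.106 to 0.072, -0.097 to 0.141 and -0.289 to -0.088 for complexes I to V, each highest without adult array 3. NDUFB1 between infants and newborns changed sign, to -0.026 with the block, and was -0.18 without newborn array 2 and 0.33 without newborn array 1. Over all alternatives, calls among all probe sets were 1 to 305 between adults and gestation day 120 (27 as reported) and 5 to 198 in the trend (61). Signals near the median of all values limit what dim probe sets can show.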

Other observations

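Mitochondrial genes outside the respiratory complexes and their substrate supply also had 0 calls by limma. In the protein import machinery, which brings nuclear-encoded subunits into the organelle, 28 of 31 listed genes were measured. Adult means were below those of gestation day 120 for 23 of the 28, with a median of -0.17, against 48.1% of all probe sets and 56.2% of the brighter ones. At an unadjusted p under 0.05 by limma stood 5 of the 28, all lower, against 4.74% of all probe sets and 8.19% of the brighter ones. TIMM17B, part of the inner membrane translocase, had means of 9.47 ± 0.0064 at gestation day 120, 9.42 ± 0.23 in newborns, 9.17 ± 0.12 in infants and 8.98 ± 0.12 in adults, and differed by -0.49 between adults and gestation day 120 (limma adjusted p = 0.282). LONP1, the matrix protease, was lowest in infants at 8.36 ± 0.087 (SD, n = 4), against 8.68 ± 0.13 in adults (SD, n = 3).

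Assembly factors, of which 25 of 43 listed were measured, had 14 adult means below those of gestation day 120, with a median of -0.023. Of all probe sets 48.1% were below 0, and of the brighter ones 56.2%. COA1, an assembly factor of complexes I and IV, differed by -0.35 (limma adjusted p = 0.690), and OXA1L, the inner membrane insertase, by -0.58 (limma adjusted p = 0.466) with an adult SD of 0.46. Regulators of mitochondrial biogenesis, 25 of 26 measured, had 11 below 0 and a median of 0.010. PPARGC1A, the coactivator PGC-1alpha, was dim in each stage, with means of 6.87 to 6.93. NRF1, a transcription factor of respiratory genes, differed by 0.069 and TFAM, the mitochondrial DNA packaging factor, by -0.25 (limma adjusted p = 0.946 and 0.715). TFB1M, a mitochondrial ribosomal RNA methyltransferase, differed by -0.51 (limma adjusted p = 0.420) and TFB2M, a mitochondrial transcription factor, by 0.25 (limma adjusted p = 0.653).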
